A study of Capra hircus with 12 samples.

Results

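Genes of protein folding and quality control in the endoplasmic reticulum (ER) were followed in cultured goat temporomandibular joint (TMJ) cells. The genes were chosen by name for their role, with earlier results of these data known. Of 45 names, 44 were found among the 28910 rows of the count tables, and P4HA2 was not analysed here. They were taken in 4 groups, namely chaperones and folding (16 genes), collagen modification and export (11 of 12 names), sensors, transcription factors and their targets (9 genes), and ER-associated degradation (8 genes). All 44 had 10 or more counts in at least 3 of the 6 libraries of each layer, the limit set for a test, so none was lost to low counts. Members given by fold change alone, PLOD2, OS9 and EDEM1 in MLC and SEL1L in SLC and between layers were named after their values were seen.

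Secreted and membrane proteins fold in the ER lumen with the help of chaperones such as BiP (HSPA5) and the lectin chaperones calnexin and calreticulin. When unfolded protein accumulates, BiP leaves the sensors PERK (EIF2AK3), IRE1 (ERN1) and ATF6, and the transcription factors ATF4, spliced XBP1 and cleaved ATF6 induce the unfolded protein response, while DDIT3 (CHOP) is linked to cell death under lasting stress. Cartilage cells load this system heavily, because procollagen must be hydroxylated, held by the collagen chaperone HSP47 (SERPINH1) and carried out in enlarged COPII carriers before enzymes of the lysyl oxidase family, such as LOXL2, cross-link it outside the cell.

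The cells came from the TMJ condyles of female goats under a year old, obtained from abattoirs, and were passaged before use. Cells of the superficial layer cartilage (SLC) and of the middle layer cartilage (MLC) were each sequenced as 6 libraries, 3 with the label IL-1β and 3 with the label IL-1β + LOXL2. All 4 groups therefore received IL-1β, a cytokine that drives cartilage breakdown, and vehicle-treated cells were not analysed here. According to the methods of the study, LOXL2 was delivered by overnight transduction with an adenovirus (Ad5-LOXL2) before a short exposure to IL-1β. An empty virus is not mentioned for the RNA-seq cultures with IL-1β alone, so LOXL2 and the adenovirus cannot be told apart. Nothing in the labels says that replicates were separate cultures or animals, so p-values measure the spread between these libraries, which may be technical. In bulk RNA, fewer cells that express a gene and less RNA of it per cell cannot be told apart.

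Counts of the goat LOXL2 gene did not rise with the LOXL2 label. Its normalized counts in SLC were 13578, 13602 and 13955 in the libraries labelled IL-1β and 10120.5, 11825 and 12119 in those labelled IL-1β + LOXL2, and in MLC they were 12223, 13866 and 12979 against 12922, 12577 and 11812. These counts were scaled within each layer and cannot be compared between layers. The log2 fold change was -0.27 ± 0.11 (SE, adjusted p = 0.106 from edgeR) in SLC and -0.065 ± 0.086 (adjusted p = 0.602) in MLC, and it was 0.12 and 0.19 with the trend on gene span described below removed. It is not known whether reads from the viral LOXL2 would be assigned to this gene, so every direction below rests on the labels. Library totals ranged from 14158607 to 28931652 counts. The SLC library labelled IL-1β + LOXL2 replicate 1 stood apart from its group, with a chi-square per degree of freedom of 169 and 62.0 against its replicates, where 1 is counting noise and the other pairs of all groups lay between 2.30 and 36.0. Of 11 cartilage cell markers, COL2A1 and COL9A1 were at 0 in every SLC library labelled IL-1β and had at most 1 count in those labelled IL-1β + LOXL2, whereas COL2A1 had 159 to 350 counts in every MLC library. The summed level of the list was 50066 to 64049 CPM (counts scaled to the library total) in SLC and 52160.1 to 57446 CPM in MLC. That list also holds COL1A1, COL1A2, LUM and DCN, so its sum does not show the level of COL2A1 or COL9A1. Markers of other cells were low, with sums of 2.97 to 5.22 CPM for 7 endothelial markers, with EMCN at 0 in all libraries, 58.5 to 141 CPM for 7 leukocyte and macrophage markers, mostly CD14, while PTPRC had at most 2 counts, and 1.81 to 8.58 CPM for the 6 skeletal muscle markers found, with CKM and MYLPF at most 2 and 4 counts. The muscle markers TNNI2 and TCAP were higher in the MLC libraries labelled IL-1β + LOXL2 (log2 fold changes 1.31 and 1.39, adjusted p = 0.0196 and 0.0343 from edgeR), with muscle sums of 4.98 to 8.58 CPM against 2.14 to 3.91, and their part in the ER results was not tested.

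The first question was how ER genes differed between cells given IL-1β with LOXL2 and cells given IL-1β alone. In MLC, 11 of the 44 genes passed an adjusted p of 0.05 in the quasi-likelihood test of edgeR, adjusted by Benjamini-Hochberg over all 13806 genes tested. SDF2L1, DERL2 and OS9 were higher with LOXL2, and ERO1A, PLOD2, SEC23A, SEC24D, ERN1, EIF2AK3, SEL1L and EDEM1 were lower. The 3 higher genes were 6.82% of the 44, against 9.88% of all genes tested, and the 8 lower genes were 18.2%, against 11.7% of all genes. Groups did not overlap for 14 ER genes that were higher (31.8%, against 20.5% of all genes) and 11 that were lower (25%, against 20.6%). The median log2 fold change of the 44 genes was 0.072, beside 0.0081 over all genes, and it was -0.036 once each library's trend on gene span, described below, had been removed.

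In SLC, none of the 44 genes passed the same test, and no gene of 14164 did (0% higher and 0% lower, smallest adjusted p 0.0706). At an unadjusted p under 0.05, 9 ER genes were higher (20.5%, against 23% of all genes) and 11 were lower (25%, against 20.2%). Groups did not overlap for 12 ER genes that were higher with LOXL2 (27.3%, against 25.2% of all genes) and 12 that were lower (27.3%, against 23.6%). DESeq2's Wald test on the same libraries called 8 ER genes higher and 9 lower, against 15.9% and 14% of all genes. Without the library that stood apart, edgeR called 18 higher and 14 lower, against 31.5% and 31.2% of all genes. When all 12 libraries were fitted jointly, 10 of the 44 were higher, against 22.8% of all genes, and 11 were lower, against 19.3%. The median log2 fold change was 0.10, beside 0.013 over all genes, and -0.054 with the span trend removed.

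Calls in MLC depended on single libraries for ER genes and for all genes. Without the MLC library labelled IL-1β + LOXL2 replicate 1, 28 ER genes passed, 14 higher and 14 lower, against 23.1% and 25.3% of all genes. Without replicate 2 of that group, without replicate 1 or 3 of the IL-1β group, and when all 12 libraries were fitted jointly, no ER gene passed, nor did any gene tested (0% in each direction in edgeR, with 3653, 3949, 3765 and 3643 genes in that order at an unadjusted p under 0.05). SEL1L and ERN1 alone among the ER genes were lower without replicate 3 of the labelled LOXL2 group, where 0.68% of all genes were higher and 2.94% lower, and without replicate 2 of the IL-1β group, where 1.59% were higher and 4.53% lower.

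**Figure D1:**
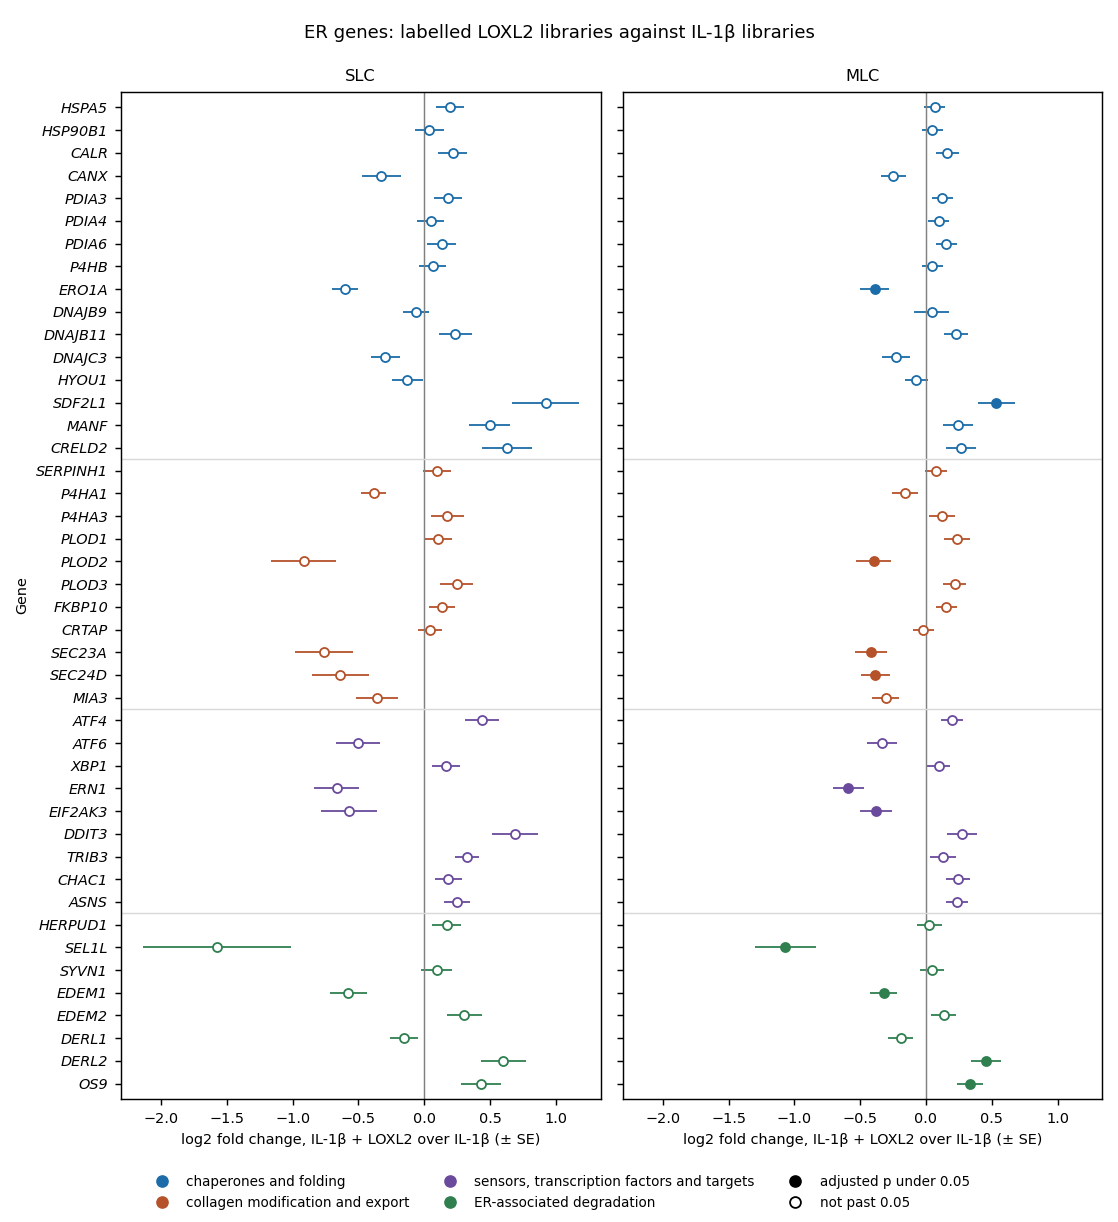
Log2 fold change of each of the 44 ER genes, libraries labelled IL-1β + LOXL2 over those labelled IL-1β, in SLC (left) and MLC (right), with bars of 1 standard error from edgeR, 3 libraries a group, and filled points where the adjusted p was under 0.05. No point is filled in SLC and 11 are in MLC, where SEL1L, ERN1 and SEC23A lie lowest and SDF2L1 lies highest.

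Among chaperones and folding enzymes, 1 gene rose and 1 fell in MLC out of 16 (6.25% each, against 9.88% and 11.7% of all genes). None passed in SLC. HSPA5 (BiP, chromosome 11, 95624833 to 95629167 of the goat assembly ARS1.2), the chaperone that binds unfolded chains and the stress sensors, had normalized counts in SLC of 14295, 14060.1 and 15269.9 with IL-1β and 18005, 15522 and 16364 in the libraries labelled LOXL2. These groups did not overlap, but the difference did not pass (log2 fold change 0.19, SE 0.11, adjusted p = 0.192). In MLC, its counts of 13508, 13611 and 13079.8 against 14580.2, 13575 and 13887 overlapped (log2 fold change 0.066, SE 0.080, adjusted p = 0.569). The point estimate of HSPA5 turned negative in both layers once the span trend was removed (-0.10 and -0.13).

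SDF2L1, a partner of BiP that lies on an unplaced sequence of the assembly, had the highest fold change of the 44 genes in both layers. Its MLC counts were 935, 931 and 851 with IL-1β and 1019.8, 1299 and 1614 in the libraries labelled LOXL2, with no overlap and replicate 1 nearest the IL-1β group (log2 fold change 0.53, SE 0.14, adjusted p = 0.0263). In SLC, they were 707, 801 and 745 against 907, 1929 and 1427, again with replicate 1 nearest (log2 fold change 0.92, SE 0.25, adjusted p = 0.0706). With the span trend removed, SDF2L1 did not pass in MLC (0.29, adjusted p = 0.0748).

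ERO1A, the oxidase that recharges protein disulfide isomerases (chromosome 10, 89716931 to 89770681), was lower in every library labelled LOXL2. In MLC it fell from 1095, 1307 and 1185 to 1022, 897 and 818 (log2 fold change -0.39, SE 0.11, adjusted p = 0.0304), and not past the threshold with the span trend removed (adjusted p = 0.0937). In SLC its counts were 1940.3, 2111 and 1927 against 1293, 1379 and 1255, groups further apart than their spread (log2 fold change -0.61, SE 0.10, adjusted p = 0.0706). SLC ERO1A passed with DESeq2's Wald test (adjusted p = 9.34e-05) and in edgeR without the library that stood apart (adjusted p = 2.23e-04).

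The other 14 chaperone genes did not pass in either layer. Among luminal proteins with estimates near 0, the chaperone HSP90B1 (GRP94) lay at 0.038 ± 0.11 (SE) in SLC and 0.049 ± 0.080 in MLC, the disulfide isomerase P4HB, which is also the second subunit of prolyl 4-hydroxylase, at 0.063 ± 0.11 and 0.049 ± 0.080, and its relative PDIA4 at 0.048 ± 0.10 and 0.10 ± 0.081. The secreted stress-response factors MANF and CRELD2 had log2 fold changes of 0.50 and 0.63 in SLC with no overlap between groups, and 0.24 and 0.26 in MLC with overlap. The BiP cofactor DNAJB9 lay at -0.064 and 0.043. Calnexin (CANX) had counts that did not overlap and were lower in both layers (-0.33 ± 0.15 and -0.25 ± 0.093), whereas calreticulin (CALR), the soluble lectin chaperone, had counts that did not overlap and were higher (0.22 ± 0.11 and 0.16 ± 0.086), with estimates of -0.10 and -0.050 once the span trend was removed.

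**Figure D2:**
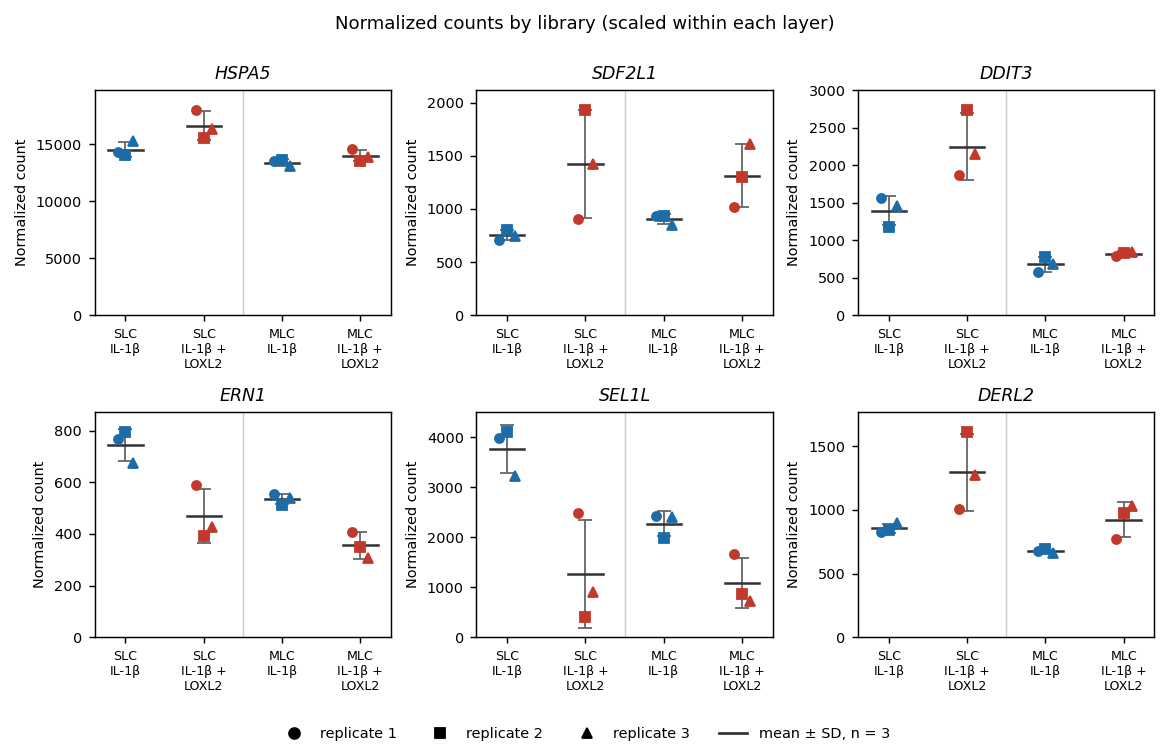
Normalized counts of 6 ER genes in every library (circle, square and triangle for replicates 1, 2 and 3, blue for IL-1β and red for IL-1β + LOXL2), scaled within each layer, with the mean and SD of 3 libraries. Because of this scaling, heights cannot be compared between SLC and MLC. Replicate 1 of each labelled LOXL2 group lies nearest the IL-1β libraries for SDF2L1, DDIT3, ERN1, SEL1L and DERL2. The lowest count of SEL1L itself was 412, in replicate 2 of the SLC group labelled IL-1β + LOXL2.

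In the group of collagen modification and export, 3 of 11 genes fell in MLC (27.3%, against 11.7% of all genes) and none rose (against 9.88%). SERPINH1 (HSP47, chromosome 15, 28270997 to 28281500), the chaperone that holds procollagen, had MLC counts of 19578, 18146 and 18641 with IL-1β and 19264, 19426 and 20755 with LOXL2, and SLC counts of 16827, 18823 and 18871 against 19766, 18554 and 20016. The groups overlapped in both layers (log2 fold change 0.10, SE 0.11, adjusted p = 0.483 in SLC; log2 fold change 0.078, SE 0.082, adjusted p = 0.507 in MLC).

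The genes lowered in MLC were PLOD2, which hydroxylates lysines of the collagen telopeptides, and SEC23A and SEC24D, subunits of the inner COPII coat that carries procollagen out of the ER. SEC23A (chromosome 21, 48461088 to 48519232) fell from 5262, 5472 and 5425 to 4932, 3721 and 3422 (log2 fold change -0.42, SE 0.12, adjusted p = 0.0321). SEC24D (chromosome 6, 6916621 to 7032560) fell from 3099, 2933 and 3157 to 2768, 2178 and 2084 (log2 fold change -0.38, SE 0.11, adjusted p = 0.0313). PLOD2 (chromosome 1, 121922039 to 122040897) fell from 1654, 1651 and 1774 to 1578, 1238 and 1033 (log2 fold change -0.40, SE 0.13, adjusted p = 0.0492). None of these groups overlapped, and none of the 3 genes passed with the span trend removed (adjusted p = 0.0700, 0.215 and 0.258).

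In SLC, PLOD2 had counts of 1206, 1769 and 1497 with IL-1β and 1034, 545 and 792 with LOXL2, lower without overlap but widely spread (log2 fold change -0.92, SE 0.24, adjusted p = 0.0706). P4HA1, a catalytic subunit of prolyl 4-hydroxylase (chromosome 28, 16469820 to 16565301), had 6446, 6543 and 6919 against 5132, 4867 and 5251, lower without overlap and with little spread (log2 fold change -0.38, SE 0.094, adjusted p = 0.0706). Its MLC counts of 4256, 4814 and 4282 against 4488, 3791 and 3693 overlapped (log2 fold change -0.16, SE 0.10, adjusted p = 0.257). SEC23A and SEC24D were also lower without overlap in SLC (log2 fold changes -0.76 and -0.64), and the collagen cargo receptor MIA3 (TANGO1) lay at -0.36 in SLC and -0.30 in MLC, not past the threshold. The remaining members, the hydroxylase genes P4HA3, PLOD1 and PLOD3, the prolyl isomerase FKBP10 and CRTAP of the prolyl 3-hydroxylation complex, ranged from 0.044 to 0.25 in SLC and from -0.021 to 0.24 in MLC, and none passed.

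Sensor genes and the genes downstream of them lay on opposite sides of 0, a split that also went with gene span. The sensors span 82726 to 243699 bases, and the other genes 2121 to 11440 apart from ASNS (152701). Fold changes of all genes fell with span, as described below. All 3 sensors had lower counts with LOXL2 in both layers without overlap, as did 23.6% of all genes in SLC and 20.6% in MLC. The 6 transcription factors and targets had positive log2 fold changes in both layers. Of these, XBP1 in both layers, CHAC1 in SLC and ATF4 in MLC were negative with the span trend removed. The summed level of the 9 genes was 1052 to 1124 CPM with IL-1β and 1217 to 1306 with LOXL2 in SLC, and 1115 to 1201 against 1226 to 1244 in MLC, given with no test. ATF4 had the most counts of the 9 genes in every library and so weighs most in this sum. ERN1 (IRE1, chromosome 19, 47881794 to 47964983), the sensor that splices XBP1 mRNA, fell in MLC from 553, 514 and 539 to 409, 350.2 and 307 (log2 fold change -0.59, SE 0.12, adjusted p = 0.0191), and still passed with the span trend removed (-0.37, adjusted p = 0.0276). Its SLC counts were 767, 793 and 673 against 589, 393 and 425 (log2 fold change -0.67, SE 0.17, adjusted p = 0.0706).

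EIF2AK3 (PERK, chromosome 11, 47043527 to 47126252), the kinase that slows translation through eIF2α, fell in MLC from 835, 790.4 and 777 to 740.1, 565 and 535 (log2 fold change -0.38, SE 0.12, adjusted p = 0.0451). This call was lost with the span trend removed (adjusted p = 0.219). In SLC, EIF2AK3 lay at -0.57 ± 0.21 (SE), with its highest labelled LOXL2 count in replicate 1. ATF6, the sensor cleaved in the Golgi and the longest of the 44 genes, had log2 fold changes of -0.50 in SLC and -0.34 in MLC, and did not pass.

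DDIT3 (CHOP, chromosome 5, 55282316 to 55286252) overlaps the MARS gene in the annotation, and how overlapping reads were counted is not given. Its SLC counts were 1556, 1175 and 1449.8 with IL-1β and 1862, 2732 and 2142 in the libraries labelled LOXL2, higher without overlap (log2 fold change 0.69, SE 0.17, adjusted p = 0.0706). Its MLC counts were 577, 779 and 681 against 783, 833 and 847, also without overlap but by the narrow gap between 779 and 783 (log2 fold change 0.27, SE 0.12, adjusted p = 0.10). SLC DDIT3 passed with DESeq2's Wald test (adjusted p = 0.00887) and without the library that stood apart (log2 fold change 0.81, adjusted p = 3.16e-04 in edgeR).

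ATF4, the factor translated when eIF2α is phosphorylated (chromosome 5, 109871889 to 109874009), had SLC counts of 9786, 9403 and 10738 against 11585, 15067 and 13863 and MLC counts of 7548, 8336 and 7669 against 8649, 9129 and 9274. It was higher without overlap in both layers and passed in neither (log2 fold change 0.44, SE 0.13, adjusted p = 0.0708 in SLC; log2 fold change 0.20, SE 0.084, adjusted p = 0.0972 in MLC), and the MLC estimate was -0.024 with the span trend removed. XBP1 (chromosome 17, 3041839 to 3046873) overlapped between groups, with counts of 3062, 3135 and 3214 against 3143, 3718 and 3692 in SLC and 2796, 3107 and 2881 against 3073, 2992 and 3319 in MLC (log2 fold change 0.17, SE 0.11, adjusted p = 0.251 in SLC; log2 fold change 0.10, SE 0.087, adjusted p = 0.437 in MLC). Gene counts do not show how much XBP1 mRNA was spliced. The ATF4 targets TRIB3, CHAC1 and ASNS had log2 fold changes in SLC of 0.32, 0.18 and 0.25, and in MLC of 0.13, 0.24 and 0.23, none past the threshold.

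The ER-associated degradation genes held both the deepest fall in MLC and 2 of the 3 rises there. Of the 8 genes, 2 rose and 2 fell (25% each, against 9.88% and 11.7% of all genes). SEL1L (chromosome 10, 10272606 to 10328983), the scaffold of the SYVN1 ubiquitin ligase complex, fell in MLC from 2428, 1986 and 2403 to 1656, 859.7 and 726 (log2 fold change -1.07, SE 0.23, adjusted p = 0.0196), that is to 47.7% of its IL-1β level. It passed with the span trend removed (-0.92, adjusted p = 0.0198). In SLC its counts were 3973, 4097 and 3224 with IL-1β and 2489, 412 and 896 with LOXL2, lower without overlap but widely spread within the labelled LOXL2 group (log2 fold change -1.58, SE 0.56, adjusted p = 0.0843). Without replicate 1 of that group its log2 fold change was -2.53 (adjusted p = 3.70e-05).

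DERL2, part of the channel through which misfolded proteins leave the ER (chromosome 19, 25886906 to 25895487), rose in MLC from 673, 689 and 661 to 772, 972 and 1028 (log2 fold change 0.45, SE 0.11, adjusted p = 0.0237). In SLC its counts were 829, 840.2 and 894 against 1004, 1608 and 1273, without overlap (log2 fold change 0.60, SE 0.17, adjusted p = 0.0706). OS9, a lectin that hands misfolded glycoproteins to SEL1L, rose in MLC from 4334, 4958 and 4637 to 5251, 5993 and 6314 (log2 fold change 0.34, SE 0.10, adjusted p = 0.0317). Both still passed with the span trend removed (adjusted p = 0.0488 for DERL2 and 0.0227 for OS9).

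EDEM1, which trims mannose from misfolded glycoproteins (chromosome 22, 21029723 to 21057035), had SLC counts of 2559.7, 2661 and 2634 against 2076, 1433 and 1758, lower without overlap (log2 fold change -0.58, SE 0.14, adjusted p = 0.0706). In MLC it fell from 2076, 2109 and 2167 to 1951, 1574 and 1557 (log2 fold change -0.32, SE 0.10, adjusted p = 0.0434). Its relative EDEM2 lay at 0.30 and 0.13. The ligase SYVN1, the membrane protein HERPUD1 and DERL1 ranged from -0.15 to 0.17 in SLC and from -0.19 to 0.043 in MLC, and none of these 4 genes passed.

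The fold changes of the ER genes were ordered by the length of genome that each gene covers, introns included. Of the 22 shorter genes, spanning 1952 to 19514 bases, 22 had positive log2 fold changes in MLC and 21 in SLC. Of the 22 longer genes, spanning 20569 to 243699 bases, 16 were negative in MLC and 15 in SLC. Across the 44 genes, Spearman's rho of fold change on span was -0.65 in MLC and -0.69 in SLC, given as a description since the genes share the same libraries. The same order held over all genes with a span (rho -0.48 over 13786 genes in MLC and -0.49 over 14144 in SLC). Libraries differed in this property, since the median log2 CPM of the 25% of genes with the longest spans minus that of the 25% with the shortest was 0.74 to 1.02 in the IL-1β libraries and -0.20 to 0.70 in those labelled LOXL2, with the highest labelled LOXL2 value in replicate 1 of each layer.

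With each library's trend on span removed, 6 of the 44 genes passed in MLC. OS9, DERL2 and ASNS were higher (6.82%, against 5.95% of all genes) and SEL1L, EDEM1 and ERN1 were lower (6.82%, against 7.24%). ASNS, which makes asparagine under ATF4, covers 152701 bases in the annotation and had MLC counts of 2442, 2367 and 2528 with IL-1β and 2798, 2792 and 3028 with LOXL2. Its log2 fold change moved from 0.23 (adjusted p = 0.0646) to 0.51 (adjusted p = 0.0186). What made the libraries differ with span was not tested.

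**Figure D3:**
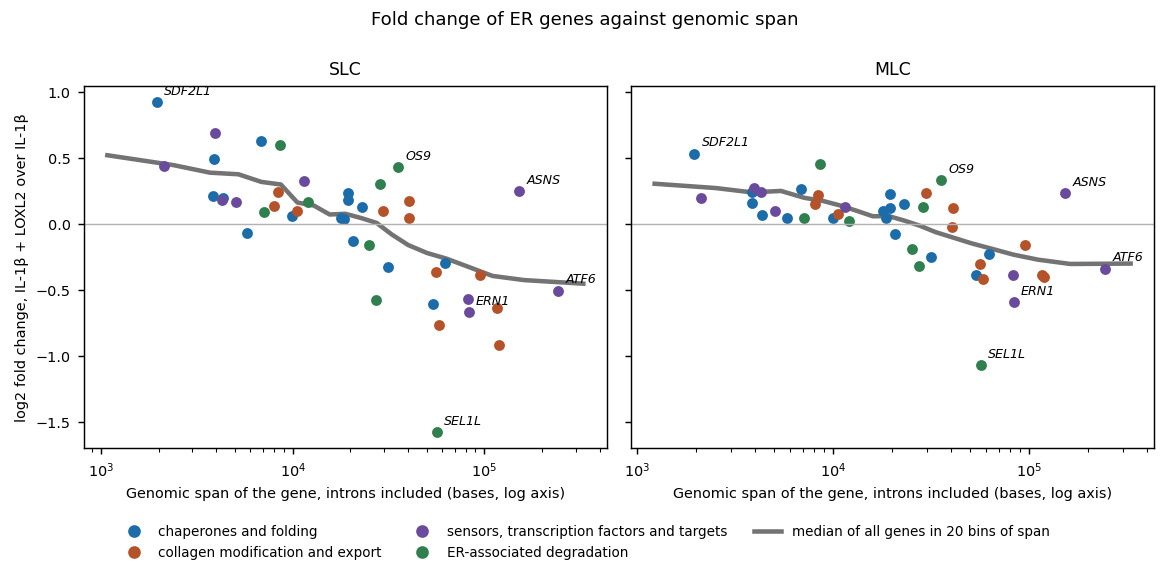
Log2 fold change of the 44 ER genes (points, coloured by group) against genomic span on a log axis in SLC (left) and MLC (right), with the median of all genes in 20 bins of span (grey line). Nearly all short genes lie above 0 and long genes mostly below, along the line of all genes, while SEL1L lies far under it and OS9 and ASNS lie above it.

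An interaction term over the 12 libraries tested whether SLC and MLC differed in their LOXL2 effect. None of the 44 genes passed, nor did any of 14446 genes (0% in either direction in edgeR, 327 at an unadjusted p under 0.05), and DESeq2's Wald test also called 0 of the 44. DDIT3 had the smallest unadjusted p of the ER genes, 0.0759 from edgeR, with an interaction term (MLC effect minus SLC effect) of -0.43 ± 0.22 (SE) on the log2 scale. Interaction terms rose with gene span, with Spearman's rho of 0.67 across the 44 genes and 0.33 over 14425 genes. Without the SLC library that stood apart, 0 of the 44 genes and 1 of 14370 passed. In that edgeR fit, 12 of the 44 genes and 3953 of the 14370 had an unadjusted p under 0.05, so these counts depended on 1 library. For no ER gene was the LOXL2 effect therefore shown to differ by layer, whatever passed in MLC alone, and a p that misses the threshold does not show that the effects were equal.

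The second question was how the layers differed under the same treatment. These comparisons use the same libraries as those above and are not independent of them, and layer and any processing batch of the layers cannot be told apart. Under IL-1β, 26 of the 44 ER genes were higher in MLC than in SLC and 3 were lower (edgeR's quasi-likelihood test, adjusted p under 0.05). The 26 were 59.1% of the genes, against 24% of all 14052 genes tested, and the 3 were 6.82%, against 22.6%. The median log2 difference was 0.21, beside -0.0065 over all genes. Between 24 and 29 ER genes passed in every alternative fit and with each library left out, and in the latter 22 to 26 were higher, against 20% to 23.5% of all genes.

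Chaperones led this difference, with 13 of 16 higher in MLC (81.2%, against 24% of all genes), and 7 of 11 collagen genes were higher too (63.6%). Sensor and target genes (3 of 9 higher, 33.3%) and degradation genes (3 of 8, 37.5%) lay nearer to the share of all genes. In each of these groups 1 gene was lower. The summed chaperone level was 5503 to 6094 CPM in the SLC libraries given IL-1β and 8085 to 8268 CPM in the MLC ones, and for collagen modification and export it was 2977 to 3204 CPM against 3694 to 3768 CPM. In the libraries labelled LOXL2 the chaperone sums were 5801 to 6138 CPM in SLC and 8305 to 8693 CPM in MLC. The sums of the sensor group, 1052 to 1124 CPM and 1115 to 1201 CPM, overlapped, while that of degradation was 1016 to 1035 CPM in SLC and 977 to 991 CPM in MLC. OS9 had the most counts of the 8 degradation genes in every library and so weighs most in that sum. Its counts were lower in MLC without overlap but did not pass (log2 difference -0.16). Of 10 cartilage cell markers tested under IL-1β, 8 were higher in MLC than in SLC and 1 was lower. Of 3 leukocyte and macrophage markers tested, 1 was higher. The 2 endothelial markers tested were 1 higher and 1 lower, as were the 2 skeletal muscle markers. The part of all these markers in the ER differences was not tested.

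**Figure D4:**
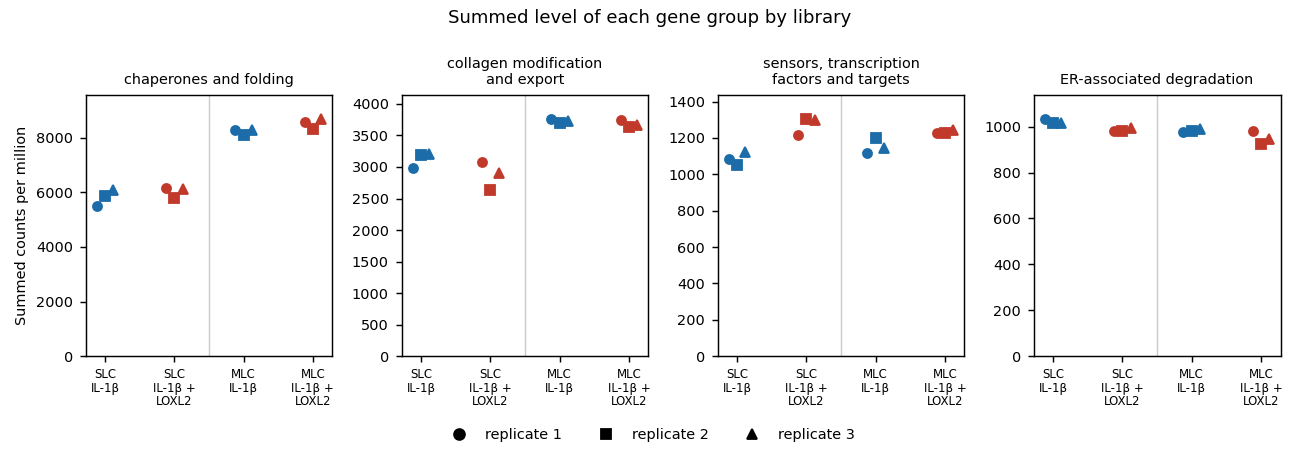
Summed level in CPM of the 4 ER gene groups in each of the 12 libraries (circle, square and triangle for replicates 1, 2 and 3, blue for IL-1β and red for IL-1β + LOXL2), with axes from 0. Every MLC library lies above every SLC library for chaperones (8085 CPM or more against 6138 or less) and for collagen modification and export.

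Scaled over all 12 libraries, CRELD2 had 397, 485 and 517 normalized counts in SLC and 976, 1012 and 950.1 in MLC (log2 difference 1.09, SE 0.089, adjusted p = 2.11e-07). MANF (chromosome 22, 49459629 to 49463491) had 838, 1024 and 972 against 1971, 1866 and 1990.5 (log2 difference 1.06, SE 0.075, adjusted p = 4.55e-08). The fitted MLC level was 2.13 times the SLC level for CRELD2 and 2.08 times for MANF, with no overlap. HSPA5 had 12195, 12039 and 13015 against 15793, 15994 and 15306 (log2 difference 0.36, SE 0.060, adjusted p = 2.07e-04). HSP90B1, CALR, SDF2L1 and PDIA4 differed by 0.78, 0.75, 0.75 and 0.72. ERO1A was lower in MLC (1655, 1807 and 1643 against 1281, 1536 and 1387, log2 difference -0.26, SE 0.073, adjusted p = 0.00980), and only DNAJB9 and DNAJC3 of the chaperones did not pass. With MLC replicate 1 left out, ERO1A did not pass either (adjusted p = 0.0601 in edgeR).

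Of the collagen genes, P4HA3 had 958, 1092 and 1098 normalized counts in SLC and 1721, 1852 and 1741 in MLC (log2 difference 0.78, SE 0.069, adjusted p = 4.89e-07). PLOD1, the lysyl hydroxylase of the helical domain (chromosome 16, 40203194 to 40232944), had 2169, 2276 and 2364 against 3710.5, 3612 and 3605 (log2 difference 0.70, SE 0.059, adjusted p = 2.51e-07). SERPINH1 had 14355, 16118 and 16084 against 22891, 21324 and 21815 (log2 difference 0.53, SE 0.066, adjusted p = 1.42e-05). None of these groups overlapped. PLOD2, FKBP10, SEC24D and PLOD3 were higher by 0.66, 0.40, 0.22 and 0.17, and P4HA1, CRTAP, SEC23A and MIA3 did not pass.

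Among sensors and targets, EIF2AK3 had 693, 640.1 and 678 normalized counts in SLC and 976, 929 and 909 in MLC (log2 difference 0.51, SE 0.068, adjusted p = 2.70e-05), and XBP1 had 2612, 2685 and 2739 against 3269.6, 3651 and 3371 (log2 difference 0.38, SE 0.061, adjusted p = 1.57e-04). DDIT3 was lower in MLC, with 1327, 1006 and 1236 in SLC and 674, 915 and 797 in MLC (log2 difference -0.56, SE 0.11, adjusted p = 9.17e-04). ATF4 did not pass (8348, 8052 and 9152 against 8825, 9796 and 8975, log2 difference 0.13, SE 0.068, adjusted p = 0.127), and the sensor ERN1 lay at 0.0011 ± 0.078 (SE). In the degradation group, EDEM2 had 753, 683 and 814 against 1085, 974 and 1030.5 (log2 difference 0.48, SE 0.078, adjusted p = 1.57e-04) and SYVN1, which overlaps MRPL49 in the annotation, had 772, 842 and 759 against 976, 934 and 889 (log2 difference 0.26, SE 0.069, adjusted p = 0.00717). SEL1L was lower in MLC by a narrow margin (log2 difference -0.25, SE 0.092, adjusted p = 0.0370), with overlapping groups.

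In the libraries labelled IL-1β + LOXL2, 12 ER genes were higher in MLC (27.3%, against 9.15% of 14111 genes) and DDIT3 was lower (2.27%, against 6.86%). All 13 had passed in the same direction under IL-1β. In the same comparison 7 of 10 cartilage cell markers, 1 of 2 endothelial and 1 of 2 skeletal muscle markers tested were higher in MLC and none was lower, and their part in the ER differences was not tested. The higher genes were HSP90B1, CALR, PDIA4, P4HB, DNAJB11, MANF and CRELD2 among chaperones and SERPINH1, P4HA3, PLOD1, PLOD2 and FKBP10 among collagen genes. The median log2 difference of the 44 genes was 0.28, beside -0.031 over all genes. DDIT3 had 1572, 2339 and 1836 normalized counts in SLC and 924, 976 and 990.2 in MLC (log2 difference -0.98, SE 0.16, adjusted p = 0.00533). PLOD1 differed by 0.83 ± 0.13 (SE), P4HA3 by 0.72 ± 0.14, MANF by 0.80 ± 0.18, CRELD2 by 0.72 ± 0.19 and SERPINH1 by 0.50 ± 0.11. HSPA5 (0.23 ± 0.12), XBP1 (0.31 ± 0.12), EDEM2 (0.30 ± 0.13), SYVN1 (0.21 ± 0.12), EIF2AK3 (0.69 ± 0.24) and ATF4 (-0.11 ± 0.13) did not pass, though XBP1 and EIF2AK3 did with the span trend removed (adjusted p = 0.0308 and 0.0155).

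In these 6 libraries the replicate numbers matched the layers only in part, since SLC replicate 2 deviated most like MLC replicate 3. The labels do not give a pairing either, so the blocked fit rests on an assumption. With the number as a block 16 ER genes were higher and 1 was lower, against 14.3% and 13.2% of all genes. The count over all genes went from 2259 to 3886. The genes added by the block were HYOU1, SEC24D, EDEM1 and EIF2AK3. Without the SLC library that stood apart, 20 ER genes were higher and 2 lower, against 16.6% and 15.5% of all genes. Without SLC replicate 2, 11 were higher and 1 lower, against 8.22% and 5.03%. Without SLC replicate 3, 4 were higher and 1 lower, against 4.74% and 2.62%. Without MLC replicate 1, 7 were higher and 1 lower, against 5.45% and 3.85%. Without MLC replicate 2, 4 were higher and 1 lower, against 4.19% and 3%, and without MLC replicate 3, 5 were higher and 1 lower, against 4.57% and 3.16%. CALR, HSP90B1, PDIA4 and PLOD1 were higher and DDIT3 was lower with each library left out.

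**Figure D5:**
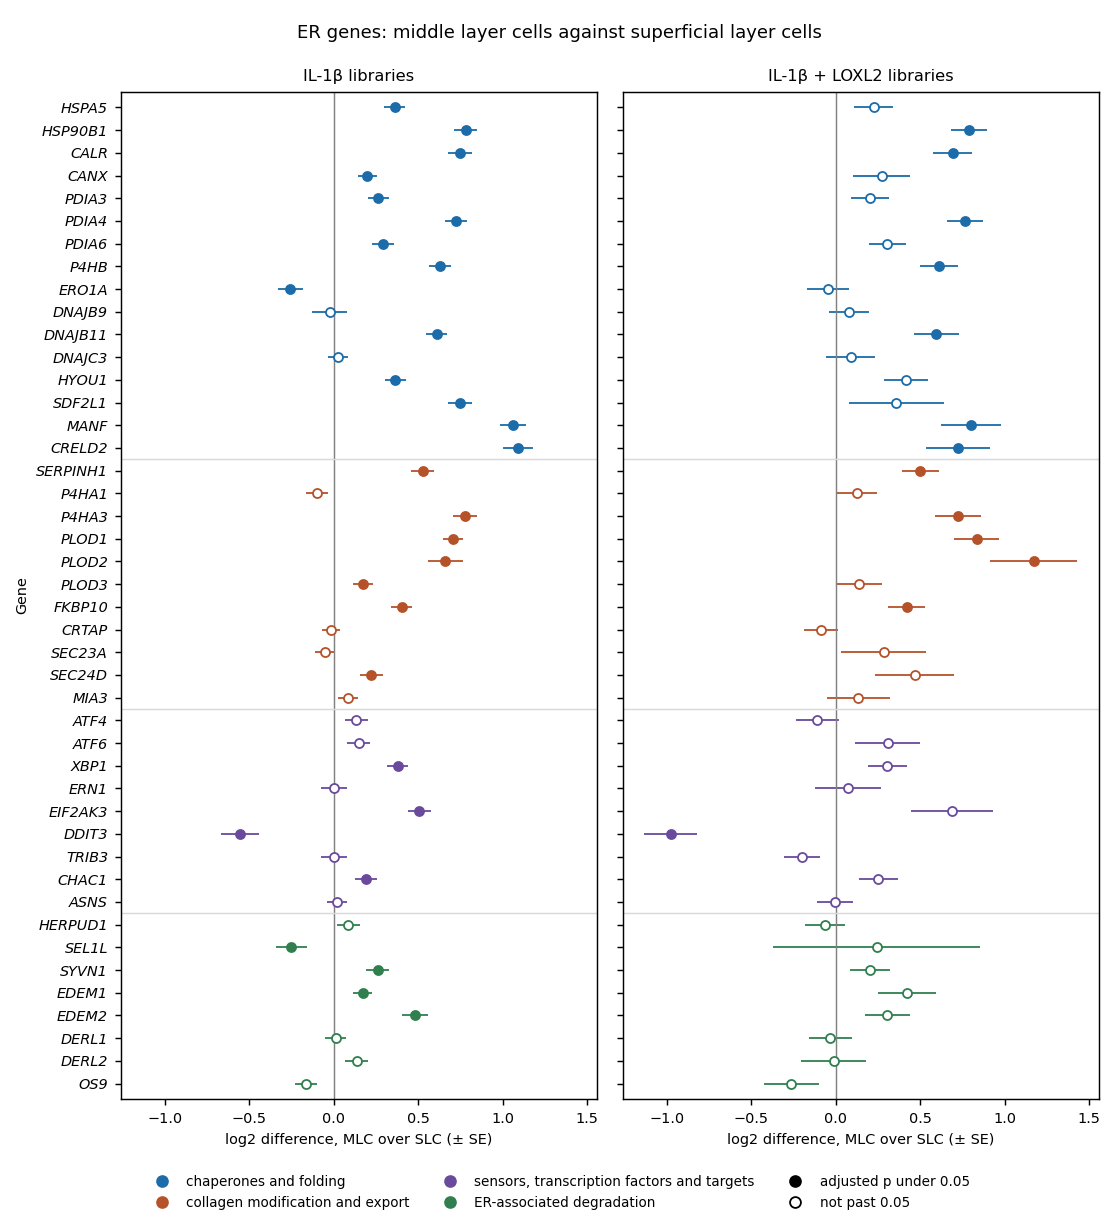
Log2 difference of the 44 ER genes, MLC over SLC, in the libraries labelled IL-1β (left) and IL-1β + LOXL2 (right), with bars of 1 standard error from edgeR, 3 libraries a group, and filled points where the adjusted p was under 0.05. Most chaperones and collagen genes lie above 0 in both panels, and DDIT3 lies lowest at -0.56 and -0.98.

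A further 150 names of the same pathways were examined, of which 142 were found. In MLC, 26 of 138 tested rose with LOXL2 (18.8%) and 17 fell (12.3%), against the 9.88% and 11.7% of all genes, with a median log2 fold change of 0.075. No gene passed in MLC when all 12 libraries were fitted jointly, so none of these did. Their count with the span trend removed is not given here. The rises lay mostly in the list of other folding and glycosylation genes, with 17 of 52 higher and 5 lower, a list whose median gene spans 14129 bases, against 21061.5 over all genes. Other sensor and target genes gave 3 higher and 6 lower of 37, other collagen and export genes 4 and 3 of 29, and other degradation genes 2 and 3 of 20. In SLC none of 138 passed in edgeR, and at an unadjusted p under 0.05 46 were higher (33.3%, against the 23% of all genes) and 24 lower (17.4%, against 20.2%).

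The further genes named are those with the smallest p in each direction. In MLC, SEC61G, a subunit of the translocation channel, rose from 1119.9, 1029 and 1029.6 to 1318, 1457 and 1594 (log2 fold change 0.46, SE 0.10, adjusted p = 0.0196), and NUPR1, a stress-induced nuclear protein, rose from 2827, 3821 and 3206 to 4072, 5317 and 5768 (log2 fold change 0.62, SE 0.14, adjusted p = 0.0197). SLC7A11, the cystine importer induced by ATF4, fell from 623, 479.6 and 653 to 328, 140.1 and 137 (log2 fold change -1.52, SE 0.27, adjusted p = 0.0187), and EIF2AK2, the RNA-sensing kinase PKR, fell from 358, 255 and 329 to 204, 114 and 118 (log2 fold change -1.09, SE 0.21, adjusted p = 0.0187). None of the 4 overlapped between groups. In SLC, BBC3, a pro-apoptotic gene, had 554, 522 and 512 against 650.4, 847 and 833 (log2 fold change 0.55, SE 0.13, adjusted p = 0.0706) and the prolyl isomerase FKBP2 had 513, 550.4 and 613 against 738, 1485 and 1055 (log2 fold change 0.97, SE 0.24, adjusted p = 0.0706). The kinase MAP3K5, which acts below ERN1, had 955, 888 and 889.7 against 649, 574 and 574 (log2 fold change -0.60, SE 0.10, adjusted p = 0.0706), and ERO1B, the second ER oxidase, had 232, 249.8 and 209.9 against 153, 164 and 136 (log2 fold change -0.61, SE 0.14, adjusted p = 0.0706). All 4 SLC genes were apart without overlap, yet none passed the threshold.

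Between layers under IL-1β, 62 of the 138 further genes were higher in MLC (44.9%, against the 24% of all genes) and 14 were lower (10.1%, against 22.6%). Other folding and glycosylation genes made up 33 of the 62 and other collagen modification and export genes 17. In the libraries labelled LOXL2, 15 were higher (10.9%, against 9.15%) and 1 was lower (0.725%, against 6.86%).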

How the data were processed

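RNA-seq was read in 12 libraries of goat TMJ cells, 3 of each combination of layer and treatment, grouped by their labels. For each layer the authors deposited 1 table of unnormalized read counts, with a column for every library. The submitters' processing notes name HISAT2 and featureCounts, with no versions, and the series' design names the goat genome ARS1.2. How strand and multiply mapped reads were handled is not given in the sources used here, so counts of the 10 ER genes that overlap another annotated gene are uncertain, as are those of SDF2L1 and CRELD2 on unplaced sequences. The 10 genes were PDIA3, PDIA6, DNAJB11, P4HA1, SEC23A, SEC24D, ATF6, ERN1, DDIT3 and SYVN1. Of these, SEC23A, SEC24D and ERN1 were among the genes that passed for the LOXL2 effect in MLC. Of 28910 rows, 28884 had a symbol in RefSeq's annotation of ARS1.2, whose coordinates and spans were used, and 26 held names that had turned into dates. Columns of no sample numbered 0.

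Counts were tested in R 4.3.3 with edgeR 4.0.16 (TMM, quasi-likelihood) among the 6 libraries of a comparison, or all 12 for the interaction. Genes were kept with at least 10 counts in at least 3 libraries of the comparison. For the interaction, at least 1 layer had to meet this limit among its own 6 libraries. P-values were adjusted over all genes (Benjamini-Hochberg, 0.05). Normalized counts are counts over DESeq2 1.42.0 size factors, within a layer for LOXL2 effects and over 12 libraries for layer differences, and standard errors are the fold change over the root of F. The steps were tested on simulated data. Alternatives were DESeq2 size factors, no filter, filterByExpr (minimum total 15), DESeq2's Wald test, a replicate block, removal of each library's lowess trend on gene span (0.3), a fit on all 12 libraries and leaving out each library.

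The members and lists were chosen with earlier results of these data known. Genes given in full are HSPA5, DDIT3, ATF4, XBP1 and SERPINH1 by role, the 2 of each group with the smallest p per layer for the LOXL2 effect and under IL-1β for the layer difference, LOXL2, and the 2 further pathway genes with the smallest p in each direction and layer; others were named after their values were seen. Same-numbered libraries labelled IL-1β + LOXL2 had correlated deviations between layers (r = 0.75, 0.32 and 0.30 across genes), but SLC replicate 2 was closest to MLC replicate 3. The blocked fit stands beside that comparison as an alternative, since neither the labels nor this check establish the pairing. For other pairs of groups r was -0.31 to 0.25.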

Additional observations from a re-analysis of the deposited data

How the results depend on the processing

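Counts of ER genes that passed changed with the fit and with single libraries, as did those of all genes. For the LOXL2 effect in SLC, 0 passed in edgeR, 21 when all 12 libraries were fitted jointly, 17 with DESeq2's Wald test and 0 to 32 with 1 library left out. In MLC, 11 passed, against 6 with the gene-span trend removed, 0 when all 12 were fitted jointly and 0 to 28 with 1 library left out. The layer difference under IL-1β + LOXL2 gave 13, against 17 with the replicate block and 5 to 22 with 1 library left out. The layer difference under IL-1β gave 24 to 29 in all fits and the interaction 0. The replicate block gave 13 in MLC and 0 in SLC, where the numbers did not pair the libraries. Removing the gene-span trend turned the SLC estimates of the median ER gene (-0.054), HSPA5 (-0.10), XBP1 (-0.13), SERPINH1 (-0.078) and LOXL2 (0.12), and the MLC estimates of the median (-0.036), HSPA5 (-0.13), ATF4 (-0.024), XBP1 (-0.10), SERPINH1 (-0.053) and LOXL2 (0.19), of which no gene passed before or after. No other alternative turned the direction of a gene given in full or of a median. The replicate block ended the call of SEL1L between layers under IL-1β (adjusted p = 0.0571 in edgeR), where the numbers did not pair the libraries either. Leaving out a library leaves fewer samples by construction, and the other causes were not tested.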
